A study of Mus musculus with 17 samples.

Results

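The 9 genes described here are Slc1a2, Slc1a3, Glul, Slc4a4, Kcnj10, Aqp4, Gja1, Aldh1l1 and Gpc5. They were chosen by name, as genes of astrocyte transport and identity, from the 26131 genes of a single-nucleus RNA count matrix, and every one of them was found in it. The matrix holds 284074 nuclei from the posterior brain of 17 mice. The mice were females aged 2.3 months with a human transferrin receptor knock-in, homozygous per the labels (hTfR KI HOM), so no animal without that allele entered any comparison. Saline animals (n = 4, also titled Vehicle) were the controls. Malat1 ASO animals (n = 4) received a free antisense oligonucleotide against the nuclear noncoding RNA Malat1, with a labelled dose of 2 mg per kg. Anti-TfR:Malat1 animals (n = 6, labelled TfR-Malat1) and OTV:Malat1 animals (n = 3) were labelled with 50 mg per kg of an article that carries such an oligonucleotide and binds the transferrin receptor. The labelled doses of the free and carried articles differ, so those groups are not matched by weight. The saline animals bear the same dose label of 50 mg per kg as the carried articles, so the label cannot be read as an amount of oligonucleotide in every group. Each animal had 4 intravenous doses over 24 days and was harvested 72 hours after the last. The comparisons ask whether the 9 genes differed between each treated group and saline, and between OTV:Malat1 and anti-TfR:Malat1.

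Astrocytes clear glutamate, potassium and water from the space around neurons. Glutamate taken up by membrane transporters is turned into glutamine by glutamine synthetase and passed back to neurons, while potassium and bicarbonate are moved by a channel and a cotransporter, and water by a channel held at the end-feet on blood vessels. Gap junctions join neighbouring astrocytes into a network through which these solutes spread.

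A unique molecular identifier (UMI) marks 1 captured RNA molecule. UMIs were summed per animal over the nuclei of each cell type label that the authors deposited, and levels are given as UMIs of the gene per 1000000 UMIs of that label in that animal (CPM). The label Astrocytes held 4972 nuclei, 1.75% of all, with 163 to 473 per animal and a median of 1800 UMIs per nucleus. The share of astrocyte-labelled nuclei ranged from 0.906% to 3.31% over the 17 animals. The 3 animals of the deposited batch 1 held the highest shares, 2.56% to 3.31%, against 0.967% to 1.93% in batch 2, 0.906% to 1.80% in batch 3 and 1.44% to 2.52% in batch 4. The labels and headers do not say what the batch number stands for. The share averaged 1.75% ± 0.96 (SD) for saline animals, 1.82% ± 0.58 with the free oligonucleotide, 1.77% ± 0.94 for anti-TfR:Malat1 and 1.83% ± 0.05 for OTV:Malat1. No difference in share exceeded the spread between animals (exact two-sided permutation tests, p = 0.886, 0.971, 0.857 and 0.905 in the order of the 4 comparisons, adjusted p = 0.971 for each over the 4; the smallest p possible was 0.0286, 0.00952, 0.0571 and 0.0238). OTV:Malat1 has no animal in batch 1. In the batches it shares with saline its share was higher in 3 of 3, by 0.92, 0.52 and 0.19 percentage points, a mean of 0.54 against 0.08 over all animals. An exact test of that mean over regroupings within batches gave p = 0.25, the smallest it allows with 3 such batches. Libraries shared few nuclear barcodes, 50 to 110 per pair over 136 pairs, and no pair stood apart.

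The astrocyte label was described with markers of astrocytes and of other types. The 14 astrocyte markers summed to 20635 CPM in astrocyte-labelled nuclei. These 14 include the 9 members, and Gpc5 alone held 8736 CPM, so the sum is no independent check of the label. The markers of other types were present at a low level: oligodendrocyte precursor genes, of which Sox6 made up 975 of 1449 CPM, summed to 9.06% of their level in cluster 13, described with Slc1a3. Neuronal genes summed to 7.74% of their own label's level, oligodendrocyte genes to 6.70%, microglial genes to 3.61% and vascular genes to 2.86%, with no gene of these lists at 0. Of the 4972 nuclei, 4793 lay in 1 deposited cluster, number 14, and 120 lay in cluster 11. Those 120 carried the microglial gene Csf1r at 537 CPM, Slc1a2 at 185 CPM and no UMI of Kcnj10 or Aldh1l1. The authors called 10.0% of astrocyte-labelled nuclei doublets and left them in. Malat1, the target, made up 9.61% ± 2.41 of the astrocyte UMIs of saline animals (SD, n = 4). It made up 9.21% ± 1.90 with Malat1 ASO (n = 4), 6.17% ± 0.78 with anti-TfR:Malat1 (n = 6) and 3.30% ± 0.19 with OTV:Malat1 (n = 3). Its loss alone raises the CPM of every other gene, by 0.01, 0.05 and 0.10 on the log2 scale against saline in these groups and by 0.04 between the carried articles.

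All 9 members were highest in the nuclei labelled Astrocytes, and they fell into 3 patterns elsewhere. Aqp4, Gja1 and Aldh1l1 were low in neurons and oligodendrocytes. Slc1a3, Glul and Kcnj10 were shared with other glia or vascular cells. Slc1a2, Slc4a4 and Gpc5 were also present in neurons. These patterns are not exclusive: Gja1 and Slc4a4 were also present in vascular cells, Slc4a4 there in a range that overlapped neurons. The labels came from a transfer of labels that used expression, so these levels are a description and carry no test.

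**Figure D1:**
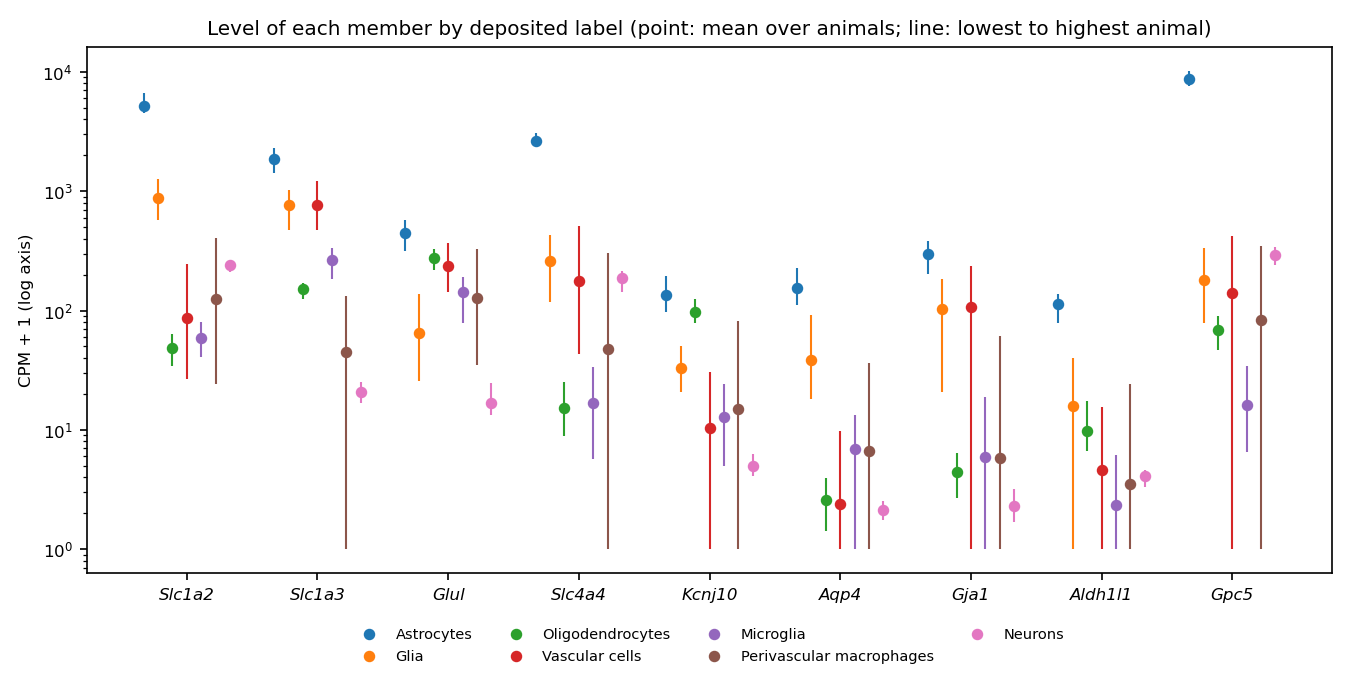
Level of each member (CPM + 1, log axis) in each deposited label. Points are means over animals and lines run from the lowest to the highest animal (17 animals, 5 for Glia). Astrocytes have the highest mean for every member, and the smallest gaps are those of Kcnj10 (134 against 97.0 CPM in oligodendrocytes) and Glul (444 against 274 CPM).

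Slc1a2 encodes GLT-1, the main glutamate transporter of forebrain astrocytes. It lies on chr2:102658659-102790784 (plus strand; GRCm38, GENCODE M21). Its level in astrocytes was 5179 CPM ± 578 (SD over 17 animals), rank 7 of all genes, and it was followed by Glia, a small label of 225 nuclei, at 876 CPM and neurons at 238 CPM ± 17. The ranges of astrocytes, Glia and neurons did not overlap. Perivascular macrophages, vascular cells, microglia and oligodendrocytes, at 123 to 47.3 CPM, came next, with overlapping ranges between neighbours. Because neurons are the largest label, with 193268 nuclei, they held 80.4% of all Slc1a2 UMIs and astrocytes 17.4%. Of the UMIs of all genes, neurons held 88.2% and astrocytes 0.88%. Among the 20 deposited clusters the highest after cluster 14 (3409 CPM) were neuronal clusters 7 (780 CPM) and 3 (451 CPM), both with the excitatory marker Slc17a7, at 228 and 194 CPM. The neuronal level was little changed, 231 CPM, when neuron-labelled nuclei of clusters 13 and 14 were left out.

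Slc1a3 encodes GLAST, the second astrocytic glutamate transporter, and lies on chr15:8634124-8710764 (minus strand). Astrocytes held 1853 CPM ± 229, vascular cells 769 CPM ± 197, microglia 261 CPM ± 42 and oligodendrocytes 150 CPM ± 14. Vascular cells and Glia (759 CPM) overlapped, while microglia stood above oligodendrocytes in 17 of 17 animals with no overlap. Neurons were lowest, at 19.7 CPM ± 2.5, and 18.99% of the UMIs behind that value came from neuron-labelled nuclei of cluster 13. That cluster expressed Pdgfra at 616 CPM and Vcan at 1265 CPM, genes known from oligodendrocyte precursors, although 94.3% of its nuclei carry the label Neurons.

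Glul encodes glutamine synthetase and lies on chr1:153899944-153909723 (plus strand). Its level was 444 CPM ± 70 in astrocytes, 274 CPM ± 34 in oligodendrocytes, 235 CPM ± 60 in vascular cells and 141 CPM ± 36 in microglia. Oligodendrocytes thus reached 61.8% of the astrocyte mean. The animals' ranges overlapped (lowest astrocyte value 311 CPM), but astrocytes were higher in 17 of 17 animals. Oligodendrocytes held 58.2% of all Glul UMIs and astrocytes 8.46%. Neurons held 15.8 CPM ± 2.7.

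Slc4a4 encodes the sodium bicarbonate cotransporter NBCe1 and lies on chr5:88886818-89239653 (plus strand). Astrocytes held 2616 CPM ± 242, Glia 260 CPM ± 110, neurons 185 CPM ± 19 and vascular cells 177 CPM ± 110. Glia, neurons and vascular cells overlapped. Oligodendrocytes and microglia were lowest, at 14.4 and 15.8 CPM. Within neurons the level was uneven: clusters 9 and 16 held 773 and 597 CPM. Of all Slc4a4 UMIs, 86.6% were in neurons, which held 88.2% of the UMIs of all genes.

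Kcnj10 encodes the inward rectifier potassium channel Kir4.1 and lies on chr1:172341210-172374085 (plus strand). Of the 9 members it differed least between astrocytes (134 CPM ± 26) and the next label, oligodendrocytes (97.0 CPM ± 9.3), which reached 72.1% of the astrocyte mean. Astrocytes were nevertheless higher in 17 of 17 animals. Every other label was at or below 32.0 CPM. By cluster, the oligodendrocyte clusters 15 (101 CPM), 0 (101 CPM) and 2 (94.5 CPM) came before cluster 14, because cluster 14 mixes astrocyte-labelled nuclei (142 CPM) with vascular (7.62 CPM) and neuron-labelled ones (32.2 CPM). Oligodendrocytes held 66.5% of all Kcnj10 UMIs.

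Aqp4 encodes the end-foot water channel and lies on chr18:15389496-15410982 (minus strand). It was 155 CPM ± 30 in astrocytes and 37.5 CPM ± 30.7 in Glia (5 animals). All other labels had means of 5.92 CPM or less, and neurons, at 1.14 CPM ± 0.24, were lowest. With Gja1 it was 1 of the 2 members with more UMIs in astrocytes than in all other labels together, 53.5% for Aqp4 and 60.1% for Gja1. Of the 1103 Aqp4 UMIs in neuron-labelled nuclei, 14.6% came from cluster 13 and 12.3% from cluster 14.

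Gja1 encodes connexin 43, the main gap junction protein of astrocytes, and lies on chr10:56377330-56402513 (plus strand). Its level was 298 CPM ± 53 in astrocytes, 105 CPM ± 50 in vascular cells and 102 CPM ± 63 in Glia, and the last 2 overlapped. Microglia, perivascular macrophages, oligodendrocytes and neurons ranged from 4.93 to 1.33 CPM. No member fell off more steeply between clusters: 208 CPM in cluster 14 against 4.63 CPM in the next, cluster 11. Cluster 14 also holds 1203 of the 1226 vascular-labelled nuclei, and those 1203 had Gja1 at 110 CPM. The fall between clusters thus does not separate astrocytes from vascular cells, which by label differed as 298 against 105 CPM.

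Aldh1l1 encodes a folate-metabolising dehydrogenase widely used to mark astrocytes and lies on chr6:90486427-90600203 (plus strand). At 113 CPM ± 16 it was the lowest of the 9 in astrocytes before any correction for length. Glia held 14.7 CPM ± 20.2, oligodendrocytes 8.85 CPM ± 2.81 and neurons 3.07 CPM ± 0.39. Microglia were lowest, at 1.35 CPM ± 1.73. Neurons, through their number, still held 59.0% of its UMIs and astrocytes 21.97%.

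Gpc5 encodes glypican 5, a heparan sulfate proteoglycan anchored at the cell surface, and spans 1433 kb at chr14:115092215-116525179 (plus strand). It had the highest astrocyte level, 8736 CPM ± 672, rank 5 of all genes. Neurons held 289 CPM ± 25 and microglia 15.2 CPM ± 6.7, the lowest. Cluster 13, with Pdgfra and Vcan, held Gpc5 at 3814 CPM beside 5756 CPM in cluster 14, whereas the other members there stayed at or below 309 CPM. Leaving out clusters 13 and 14 took Gpc5 from 288 to 219 CPM in pooled neuron-labelled nuclei and from 67.9 to 37.8 CPM in oligodendrocyte-labelled ones, where cluster 13 supplied 42.6% of its UMIs. The deposited neuron and oligodendrocyte levels of Gpc5 therefore include nuclei with precursor markers.

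**Figure D2:**
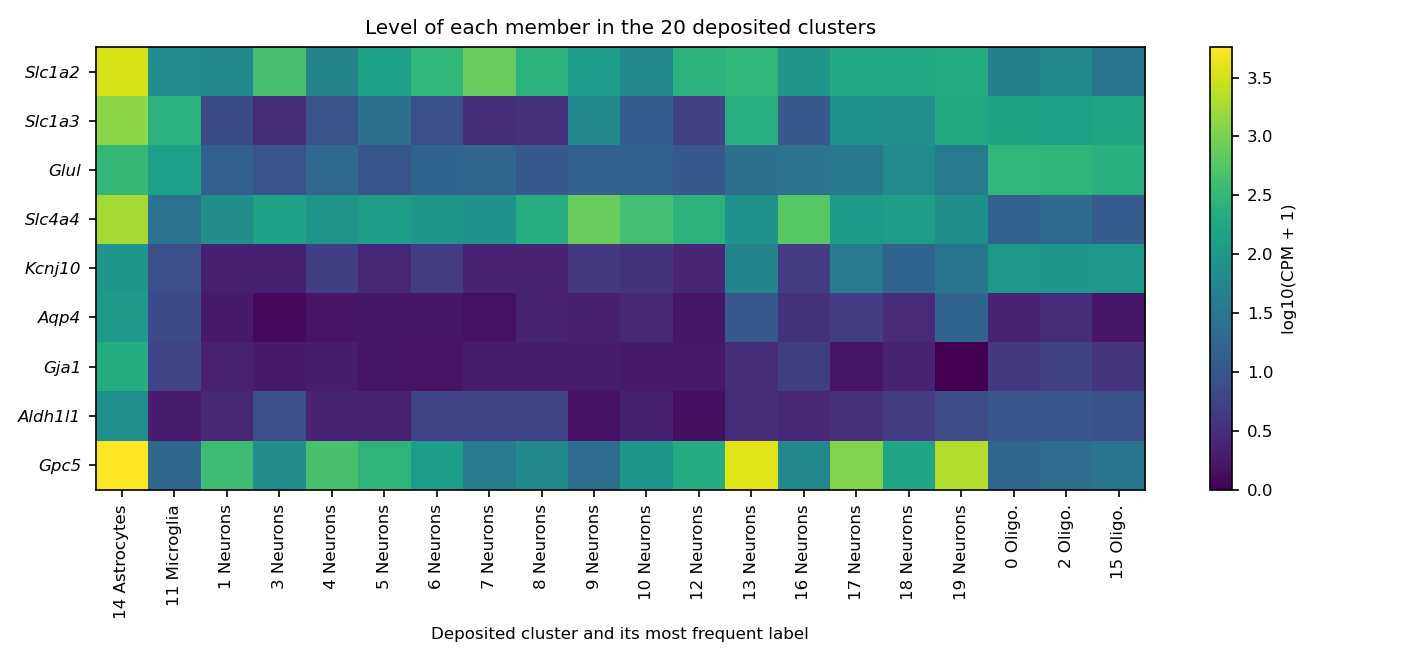
Level of each member, as log10(CPM + 1), in the 20 deposited clusters, each with its most frequent label. Cluster 14 is highest for all members but Kcnj10, cluster 13 stands out for Gpc5 (3814 CPM), clusters 7 and 3 for Slc1a2 (780 and 451 CPM), clusters 9 and 16 for Slc4a4 (773 and 597 CPM), and the oligodendrocyte clusters for Glul and Kcnj10.

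UMI counts carry no length correction, so levels of different genes are compared with caution. The sources used here do not say whether intronic reads were counted. Values per kb are given as descriptions for 2 lengths, and whether length affects these counts was not tested. Per kb of gene span, the order in astrocytes was Glul (45.4 CPM per kb), Slc1a2 (39.2), Slc1a3 (24.2), Gja1 (11.8), Slc4a4 (7.41), Aqp4 (7.21), Gpc5 (6.10), Kcnj10 (4.09) and Aldh1l1 (0.992). Per kb of annotated exon, Gpc5 led with 1962 CPM per kb, followed by Slc1a2 with 394, Slc4a4 with 242, Slc1a3 with 217 and Glul with 133, and the other 4 lay between 24.8 and 29.0. The place of Gpc5 thus depended on the length used, while Slc1a2 held rank 2 on both scales. On the opposite strand within Gpc5 lies Gm20713 (chr14:115788144-115871278), whose level across the 20 clusters followed that of Gpc5 with r = 0.999. The sources used here do not state whether counting used strand, and whether reads of 1 gene of that pair were counted for the other was not tested. The same holds for Gpc5 with 4930505G20Rik, Glul with Teddm2, Slc1a2 with Gm13872 and Aldh1l1 with Gm15756, all on opposite strands. Gm45901 overlaps Aldh1l1 on the same strand, and how reads in shared sequence were counted was not tested.

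**Figure D3:**
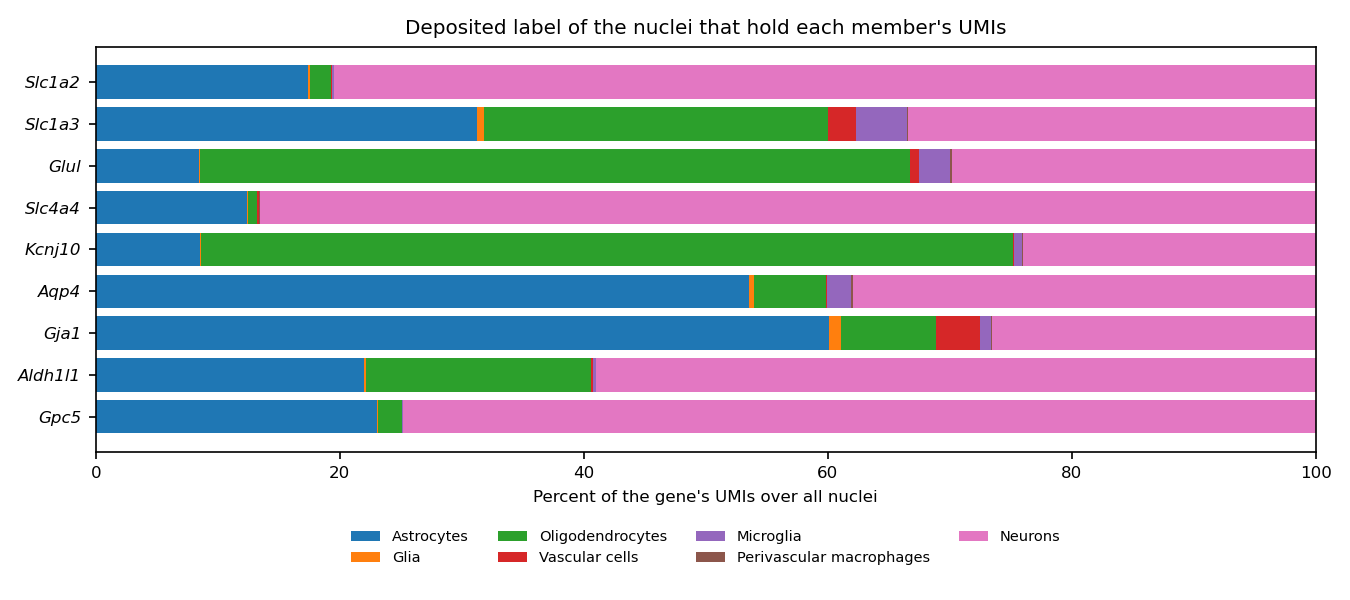
Deposited label of the nuclei that hold each member's UMIs, in percent of that gene's UMIs over all 284074 nuclei. Astrocytes hold over 50% for Aqp4 (53.5%) and Gja1 (60.1%), neurons hold 80.4% for Slc1a2 and 86.6% for Slc4a4, and oligodendrocytes hold 58.2% for Glul and 66.5% for Kcnj10. Of the UMIs of all genes, neurons hold 88.2%, oligodendrocytes 9.81% and astrocytes 0.88%.

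To compare nuclei of different depth, each was thinned to 500 UMIs. A UMI of Gpc5 was then seen in 88.0% of astrocyte nuclei, of Slc1a2 in 80.9%, of Slc4a4 in 63.2% and of Slc1a3 in 53.6%. Glul was seen in 18.6%, Gja1 in 14.2%, Aqp4 in 7.42%, Kcnj10 in 6.68% and Aldh1l1 in 5.53%. Without thinning the shares were 92.1%, 95.1%, 87.5%, 83.9%, 49.4%, 39.2%, 23.2%, 20.7% and 19.1%, in the same order. Aqp4, Kcnj10 and Aldh1l1 were thus missing from most astrocyte nuclei at this depth, which says nothing of whether those nuclei express them.

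Microglia serve as a type in which most members are not expected, with a median of 1004 UMIs before thinning against 1800 in astrocytes. There the thinned shares were 0.72% for Gpc5, 2.91% for Slc1a2, 0.73% for Slc4a4, 0.25% for Gja1, 0.30% for Aqp4, 0.44% for Kcnj10 and 0.06% for Aldh1l1. Slc1a3, at 11.8%, and Glul, at 6.88%, stood well above the rest. The ratio of the Slc1a3 to the Gpc5 level was 0.206 in astrocytes, 18.02 in microglia, 5.10 in vascular cells, 2.19 in oligodendrocytes and 0.068 in neurons. For Slc1a2 to Gpc5 it was 0.580 in astrocytes, 3.91 in microglia, 0.520 in vascular cells, 0.680 in oligodendrocytes and 0.826 in neurons. The part of free RNA in these levels was not tested.

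Astrocyte nuclei held UMIs of several members at once. At 500 UMIs an astrocyte nucleus had a UMI of 3.38 of the 9 members on average, against 0.304 in neurons, 0.299 in oligodendrocytes, 0.241 in microglia and 0.540 in vascular cells. Of the astrocyte nuclei 79.1% had 3 or more members and 2.49% had none. Among neurons, 0.249% had 3 or more. By group the astrocyte mean was 3.32 for saline (animals 3.08 to 3.46), 3.37 for Malat1 ASO (3.05 to 3.55), 3.40 for anti-TfR:Malat1 (3.31 to 3.53) and 3.43 for OTV:Malat1 (3.33 to 3.49), with overlapping animals. Glia-labelled nuclei held 0.871 members, with Slc1a3 in 30.7% and Gpc5 in 4.44% of them. The neuron-labelled nuclei of cluster 14 (1147) had Slc1a2 at 1266 CPM beside the neuronal RNA Meg3 at 5450 CPM, and 55.4% of them were doublets by the authors' call.

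Across the 20 clusters, Kcnj10 and Glul were the closest pair (Pearson r = 0.865 on log2(CPM + 1)), then Slc1a3 with Kcnj10 (r = 0.861) and Slc1a3 with Glul (r = 0.787). Aqp4 was closest to Slc1a3 (r = 0.745) and Gja1 (r = 0.709), and Gja1 to Aqp4 and Aldh1l1 (r = 0.698). Slc1a2 and Slc4a4 had r = 0.573. Gpc5 was closest to Aqp4 (r = 0.638), before Slc1a2 (r = 0.507) and Slc4a4 (r = 0.352). These correlations are descriptions over clusters that share libraries and differ in depth. Among 7139 other genes, those most like Aqp4 were Asb8, Acsbg1 and Mfge8 (r = 0.952, 0.951 and 0.951). Gja1 was most like Vtn, Gjb6 (connexin 30, also a gap junction protein of astrocytes) and Acot11 (r = 0.991, 0.978 and 0.966). Vtn is 1 of the 8 vascular markers used here, and cluster 14 holds 1203 of the 1226 vascular-labelled nuclei beside the astrocytes. For Kcnj10 the closest included Hepacam and Cmtm5 (r = 0.978 and 0.974), and for Glul Magt1, Trp53bp2 and Epm2aip1 (r = 0.979, 0.971 and 0.960). The genes nearest to Slc1a3 were Il18, Nadk2 and Spidr (r = 0.940, 0.929 and 0.927), and to Slc4a4 Trpm3, Lgi1 and Tead1 (r = 0.893, 0.874 and 0.870). Aldh1l1 was followed most closely by Lgi4, Aldh1a1 and Gm6145 (r = 0.891, 0.887 and 0.869), Gpc5, after Gm20713, by Bcan and Sycp3 (r = 0.933 and 0.928), and Slc1a2 least closely, by Stt3b, Gm26703 and Wdr17 (r = 0.832, 0.830 and 0.812).

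None of the 9 members passed the adjusted threshold in astrocytes in any comparison. Of 36 tests (9 members in 4 comparisons; edgeR quasi-likelihood test on UMI sums per animal, Benjamini-Hochberg adjusted over 8547 genes) 0 passed an adjusted p of 0.05, 1 had an unadjusted p under 0.05, and DESeq2 called 0 with 1 such unadjusted p. Over all genes tested, percent called was 0% for Malat1 ASO and for anti-TfR:Malat1 against saline, 0.0117% for OTV:Malat1 against saline and 0.0117% for OTV:Malat1 against anti-TfR:Malat1. The 1 gene called in each of the last 2 was Malat1, which fell by 1.65 (SE 0.17, adjusted p = 5.8e-07, edgeR) and by 0.98 (SE 0.15, adjusted p = 0.0044, edgeR) on the log2 scale. The call between the carried articles was lost without OTV:Malat1 replicate 2 (-0.951, SE 0.18, adjusted p = 0.071, edgeR) or replicate 3 (-0.949, SE 0.18, adjusted p = 0.10, edgeR). In anti-TfR:Malat1 against saline, Malat1 was not called (adjusted p = 0.16) but was with the deposited batch as a block (-0.61, SE 0.11, adjusted p = 0.036). Leaving out either Malat1 ASO replicate 4 or saline replicate 4 also gave that call, at adjusted p-values of 0.042 and 0.0047 (edgeR). Without a filter on low counts it was called as well (-0.69, SE 0.11, adjusted p = 1.0e-05, edgeR). The median log2 change of the members was 0.08 for Malat1 ASO, 0.12 for anti-TfR:Malat1 and 0.10 for OTV:Malat1 against saline and -0.05 between the carried articles, beside medians of 0.00 over all genes tested. The same 4 saline animals serve in 3 of the comparisons.

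**Figure D4:**
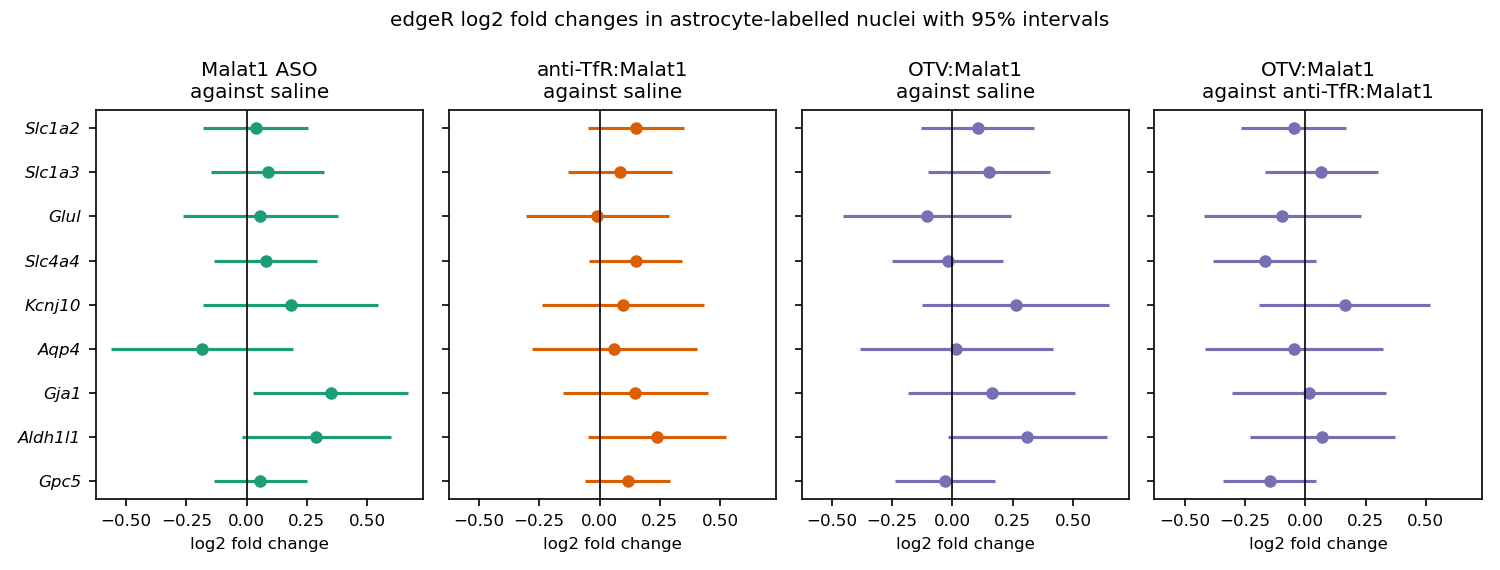
edgeR log2 fold changes of the members in astrocyte-labelled nuclei (points) with 95% intervals (lines) for the 4 comparisons. All intervals cross 0 except that of Gja1 in Malat1 ASO against saline (0.03 to 0.67), whose adjusted p did not pass.

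The 95% intervals of the fold changes were narrow for the abundant members and wider for the others. On the log2 scale the narrowest was that of Gpc5 in anti-TfR:Malat1 against saline, 0.96-fold to 1.23-fold, and the widest that of Aqp4 in OTV:Malat1 against saline, 0.77-fold to 1.33-fold. For the abundant transporters the OTV:Malat1 intervals against saline were 0.91-fold to 1.27-fold (Slc1a2), 0.93-fold to 1.32-fold (Slc1a3) and 0.84-fold to 1.16-fold (Slc4a4). An astrocyte sum held 27 to 161 UMIs of Kcnj10 but 2183 to 11104 of Gpc5.

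Among the 9 members in the 4 comparisons, groups failed to overlap only for Slc1a3 and Aldh1l1, both in OTV:Malat1 against saline. How often other genes separate these small groups in astrocytes was not tested, so the 2 cases are a description only. In saline astrocytes Slc1a3 was at 1649, 1685, 1721 and 1835 CPM. The OTV:Malat1 animals had 1861, 2014 and 2276 CPM, so all 3 lay above the 4 controls. The edgeR change was 0.15 on the log2 scale (SE 0.12, unadjusted p = 0.23), and it did not pass. The groups overlapped when Malat1 was left out of the UMI totals: saline then ran from 1818 to 2036 CPM and OTV:Malat1 from 1928 to 2349 CPM. Malat1 ASO animals (1639 to 2039 CPM) and anti-TfR:Malat1 animals (lowest 1412, median 1885, highest 2279 CPM) overlapped saline in either case.

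Aldh1l1 was at 77.4, 90.7, 91.9 and 111 CPM in the saline animals and at 124, 125 and 137 CPM in the OTV:Malat1 animals. Malat1 ASO animals held 104, 117, 119 and 131 CPM, and anti-TfR:Malat1 animals ranged from 97.4 to 127 CPM with a median of 121 CPM. All treated groups thus had means above the saline mean of 92.8 CPM ± 13.96 (SD, n = 4): 118 ± 11 (n = 4), 115 ± 12 (n = 6) and 128 ± 8 CPM (n = 3). The edgeR changes were 0.29 (SE 0.15), 0.24 (SE 0.14) and 0.31 (SE 0.16) on the log2 scale, with unadjusted p of 0.078, 0.10 and 0.076. None passed the adjusted threshold. Within batches the difference from saline was positive in 4 of 4, 4 of 4 and 3 of 3 batches, with or without Malat1 in the totals. Each batch holds only 1 saline animal, so the signs of a batch share that control and are not independent across the treated groups. OTV:Malat1 stayed above all saline animals without Malat1 in the totals, but only just, 128 CPM against a highest saline value of 127 CPM. Over the alternatives the lowest changes were 0.22, 0.16 and 0.24. The highest, 0.46, 0.41 and 0.48, came without saline replicate 1, the highest control, whose removal can only raise them. Still none passed (lowest adjusted p of any alternative 0.805, edgeR, in OTV:Malat1). The values rest on 29 to 140 UMIs per animal, and the spread of the saline animals, 15.0% of their mean, was no larger than counting alone gives, 15.6%.

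Gja1 had the largest edgeR change among the 36, in Malat1 ASO against saline. The saline animals held 203, 230, 299 and 318 CPM and the Malat1 ASO animals 286, 315, 328 and 380 CPM. The groups overlapped. The change was 0.35 on the log2 scale (SE 0.16, unadjusted p = 0.035), and it did not pass adjustment over all genes (adjusted p = 1.00, edgeR). Within the 4 batches the log2 differences were 0.72, 0.05, 0.08 and 0.49. OTV:Malat1 animals were split, with 199, 357 and 376 CPM, and their change against saline was 0.16 on the log2 scale (unadjusted p = 0.35, edgeR). Over the alternatives that change ran from 0.03 to 0.37. The highest value came without replicate 3, the lowest animal (unadjusted p = 0.029, edgeR, not passing adjustment). Leaving out the lowest treated animal sets the direction of that shift.

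For the other members every pair of groups overlapped. Slc1a2 was 4798 CPM ± 219 (SD) for saline, 4902 ± 347 for Malat1 ASO, 5443 ± 456 for anti-TfR:Malat1 and 5527 ± 1035 for OTV:Malat1. The wide OTV:Malat1 spread came from values of 4696, 5197 and 6686 CPM, and the change against saline was 0.23 without replicate 2 but -0.08 without replicate 3. Aqp4 ran from 110 to 181 CPM across saline animals, 111 to 155 with Malat1 ASO, 117 to 225 with anti-TfR:Malat1 and 147 to 186 with OTV:Malat1, and its change in Malat1 ASO, -0.19 (SE 0.18), was the lowest of the 36. Glul means stayed between 431 and 452 CPM in all 4 groups, with SDs of 35.8 to 84.4 CPM. Without saline replicate 1, the highest control at 541 CPM, its changes against saline were 0.23 for Malat1 ASO, 0.17 for anti-TfR:Malat1 and 0.07 for OTV:Malat1, none passing. Kcnj10 means were 121, 136, 130 and 159 CPM, the last from OTV:Malat1 animals at 120, 165 and 193 CPM. Slc4a4 had the lowest saline SD of the 9, 3.71% of the mean, followed by Slc1a2 (4.56%), Slc1a3 (4.68%) and Gpc5 (7.06%). The OTV:Malat1 changes of Gpc5 and Slc4a4 against saline were -0.03 (SE 0.10) and -0.02 (SE 0.11), and without OTV:Malat1 replicate 2 they were 0.07 and 0.05.

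In anti-TfR:Malat1, 5 of 6 animals lay above every saline animal for Slc1a2 and for Slc4a4, and 3 of 6 did for Gpc5. Within batches the difference from saline was positive in 4 of 4 for these 3 genes. Their edgeR changes were 0.15 (SE 0.10), 0.15 (SE 0.10) and 0.12 (SE 0.09), with unadjusted p of 0.13, 0.13 and 0.19, and none passed. When Malat1 was left out of the totals, 2, 3 and 2 of the 6 animals lay above every saline animal, and the differences within batches were positive in 3, 4 and 4 of 4. Kcnj10 in OTV:Malat1 was higher in 3 of 3 batches than saline and than anti-TfR:Malat1. Its edgeR changes, 0.26 (SE 0.19) and 0.16 (SE 0.17), did not pass (unadjusted p = 0.18 and 0.35). Such agreement was not particular to Kcnj10. In OTV:Malat1 against saline, 6 members had the same sign in all 3 batches: Slc1a2, Slc1a3, Aldh1l1, Slc4a4, Kcnj10 and Glul. Between the carried articles 2 did, Kcnj10 and Aldh1l1. How often other genes do so was not tested. With Malat1 left out of the totals the Kcnj10 signs held in 3 of 3 batches in both comparisons.

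**Figure D5:**
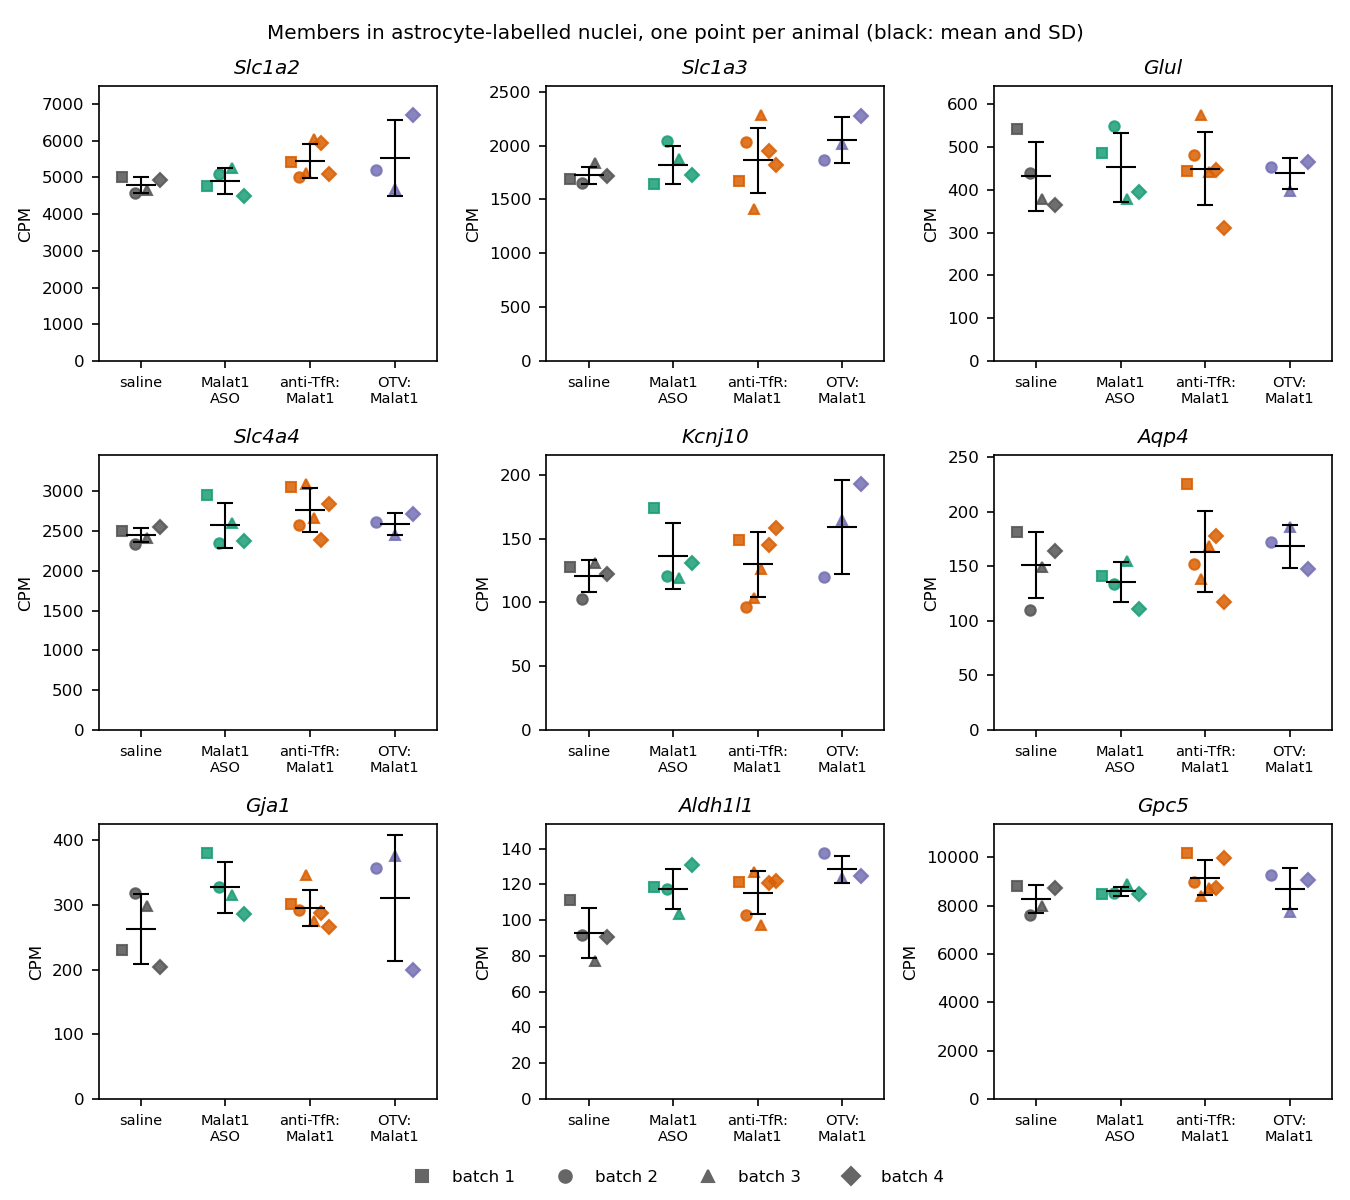
CPM of each member in astrocyte-labelled nuclei, 1 point per animal with the batch as its shape, and mean and SD in black, for the 4 groups. Groups overlap except for Slc1a3 and Aldh1l1 between OTV:Malat1 and saline, and how often other genes separate these groups was not tested. For Aldh1l1 the OTV:Malat1 animals run from 124 to 137 CPM and the saline animals from 77.4 to 111 CPM.

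Outside astrocytes the members did not pass either. Of 124 tests in oligodendrocytes and neurons (9 members each), vascular cells (6), microglia (5) and perivascular macrophages (2), 0 passed in edgeR and 8 had an unadjusted p under 0.05. DESeq2 called 0, also with 8. Members missing from a label did not pass the filter on low counts there, and Glia had too few nuclei to be tested. The background in these labels was 0% called in all comparisons but 3: 0.0208% in oligodendrocytes for OTV:Malat1 against saline, 0.00694% there for OTV:Malat1 against anti-TfR:Malat1, and 0.011% in microglia for OTV:Malat1 against saline. Over all nuclei, 0 of 36 tests passed in edgeR and 0 in DESeq2, none had an unadjusted p under 0.05 in either, and 0% of 21375 genes were called.

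Oligodendrocytes held 5 of those 8 unadjusted p-values. Of all 14419 genes tested there, 374 had an unadjusted p under 0.05 for OTV:Malat1 against saline. Between the carried articles 424 did. Aqp4 was 1.11 CPM ± 0.32 in saline and 2.44 CPM ± 0.51 in OTV:Malat1 (log2 change 0.98, SE 0.36, unadjusted p = 0.013), and the groups did not overlap (0.802 to 1.55 against 1.94 to 2.95 CPM). Aldh1l1 was 7.71 CPM ± 1.93 in saline, 7.37 CPM ± 1.88 in anti-TfR:Malat1 and 12.9 CPM ± 3.4 in OTV:Malat1 (0.55, SE 0.24, against saline and 0.65, SE 0.22, against anti-TfR:Malat1). Gpc5 was 68.2 CPM ± 12.1, 67.8 CPM ± 9.1 and 57.0 CPM ± 11.3 in the same groups (-0.44, SE 0.17, and -0.37, SE 0.16). None passed, and the lowest adjusted p of a member in oligodendrocytes was 0.968 (edgeR). Of the Gpc5 UMIs in oligodendrocyte-labelled nuclei, 42.6% came from cluster 13, which expressed Pdgfra and Vcan. The part of those nuclei in the Gpc5 change was not tested. Malat1 had a log2 change of -2.79 (SE 0.19) in this label for OTV:Malat1 against saline. With Malat1 left out of the counts, 8 of the 124 tests over these labels had an unadjusted p under 0.05, and 0 passed. Over all 17 animals oligodendrocytes held only 172 Aqp4 UMIs, and how often other genes separate these groups was not tested. The Aqp4 level in oligodendrocytes was 1.02% of that in astrocytes, and stray astrocyte RNA in oligodendrocyte nuclei was not tested. The other 3 cases were Slc1a2 in OTV:Malat1 against anti-TfR:Malat1, with changes of -0.19 (SE 0.08) in neurons, 1.18 (SE 0.51) in vascular cells and -2.26 (SE 0.89) in perivascular macrophages. Over all animals vascular cells held 131 Slc1a2 UMIs and perivascular macrophages 100. The 3 macrophage-labelled nuclei of cluster 14, all doublets by the authors' call, held Slc1a2 at 5795 CPM. Their part in the macrophage change was not tested.

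The members' neighbours in function were likewise without a call. Of 63 genes in 7 lists, 48 were tested in astrocytes, and 0 of 192 tests passed in edgeR, with 1 unadjusted p under 0.05, that of Slc9a3r1 (NHERF1, a membrane scaffold), at 0.56 (SE 0.21) in OTV:Malat1 against anti-TfR:Malat1. Glutamate, glutamine and amino acid handling had 8 of 9 genes tested, led by Glud1 (547 CPM in astrocytes), a glutamate dehydrogenase, and Slc7a11 (325 CPM), a cystine and glutamate exchanger, with median changes against saline of -0.07, 0.03 and 0.12. Potassium, sodium and water handling had 7 of 7, among them the sodium pump beta subunit Atp1b2 (177 CPM), with medians of -0.03, -0.13 and -0.04. Gap junction, end-foot and anchoring genes had 8 of 8, led by Dtna (1671 CPM) and Dmd (1169 CPM), both of the dystrophin complex that anchors Aqp4, with medians of 0.02, 0.01 and -0.05.

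GABA and glycine uptake had 3 of 3 genes tested, led by the GABA transporter Slc6a11 (658 CPM), with medians of 0.04, 0.10 and 0.09. Astrocyte identity genes had 19 of 19, led by the transcription factor Nfia (1996 CPM) and the lipoprotein gene Apoe (1227 CPM), with medians of 0.10, 0.04 and 0.05. Of the 5 other glypicans 2 were tested, Gpc6 (827 CPM) and Gpc4 (31.0 CPM). The reactive astrocyte list was nearly silent: of 12 genes only Gfap (33.0 CPM), the intermediate filament of reactive astrocytes, passed the filter, followed by the complement gene C4b (15.4 CPM). Gfap changed by -0.65, -0.19 and -0.41 against saline with no unadjusted p under 0.05.

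Markers of other cell types in astrocyte-labelled nuclei did not pass in any group, but some differed more than the members. The 8 oligodendrocyte markers summed to 1091 CPM for saline (775 to 1368), 1012 for Malat1 ASO (838 to 1196), 873 for anti-TfR:Malat1 (666 to 1216) and 1201 for OTV:Malat1 (847 to 1438). Their median change was -0.36 in anti-TfR:Malat1 against saline, with 4 of 8 at an unadjusted p under 0.05, beside 271 of all 8547 genes tested. Of the precursor markers 5 of 6 were tested, with a median of -0.87 in OTV:Malat1 against saline and 3 at an unadjusted p under 0.05, beside 345 of 8547 genes. Summed over all 6 they overlapped, at 1537 CPM for saline (1099 to 1775) and 1347 CPM for OTV:Malat1 (1293 to 1395), and Sox6, the most abundant of those tested, had a change of 0.07. Their part in the members' values was not tested. Summed neuronal markers ranged from 726 to 1626 CPM, microglial from 117 to 422 CPM and vascular from 80.8 to 127 CPM, with overlapping groups.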

How the data were processed

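The authors deposited whole-number UMI counts per gene and nucleus, with metadata, per the file headers. The submitters' processing notes name Cell Ranger 6.0.1, Seurat 4 and mm10. Labels, clusters (resolution 0.4), doublet calls and batch numbers are the authors'. The deposited nuclei have 500 or more UMIs. Of the metadata columns, 12 were not used. The members and all lists were chosen with earlier results of these data known. UMIs were summed per animal and label for animals with 20 or more nuclei. edgeR 4.0.16 (filterByExpr, TMM, glmQLFit, glmQLFTest) fitted all 17 animals together. Two-sided p-values were adjusted (Benjamini-Hochberg) over every gene tested in a label. Intervals are 95%, and an SE is the log2 change divided by the square root of F. Named genes were the members, Malat1, and up to 2 genes per list with the highest saline astrocyte level. The 3 genes most like each member were also named, among genes of 50 CPM or more in at least 1 cluster. P-values measure the spread between animals as labelled. Coordinates are from GENCODE M21. The fits were tested on simulated data. A few genes that the rule names are not reported here. Alternatives included DESeq2 1.42.0. Code used R 4.3.3 and Python 3.11.15.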

Additional observations from a re-analysis of the deposited data

Results flagged for a closer look

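In a group of 4 or 6 animals, a value was taken out for a closer look when its gap to the nearest animal passed the 95% limit of Dixon's ratio. Chance flags about 1 in 20 groups, and 5 of 57 groups examined were flagged. In astrocytes, Gpc5 was 8887 CPM in Malat1 ASO replicate 3, above the other 3 animals at 8470 to 8503 CPM, a gap of small size in a group with a narrow range. Over all nuclei, saline replicate 1 was highest for Aqp4 (4.63 CPM, others 1.67 to 2.17), Slc1a3 (69.8 CPM, others 43.8 to 47.4) and Gja1 (6.40 CPM, others 3.15 to 3.59). Anti-TfR:Malat1 replicate 1 was highest for Aqp4 over all nuclei (5.71 CPM, others 1.72 to 2.71). Both of these animals belong to the deposited batch 1, and their shares of astrocyte-labelled nuclei were 3.12% and 3.31%, the highest of their groups. Within astrocyte-labelled nuclei Aqp4 in them was 181 and 225 CPM, also the highest of their groups, but Slc1a3 (1685 CPM) and Gja1 (230 CPM) in saline replicate 1 were not. Their median UMIs per astrocyte nucleus, 2516 and 2088, were also the highest of their groups (others 1509 to 2015 and 1470 to 1934.5).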

How the results depend on the processing

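The count of members called stayed 0 in astrocytes, in the other labels and over all nuclei, in every comparison, under DESeq2, RLE size factors, Malat1 left out, no filter, only the 2 groups compared, both blocks, doublets left out, nuclei of 1000 or more UMIs and each animal left out, and in astrocytes also with the label joined with cluster 14. The lowest adjusted p of a member was 0.805 in astrocytes, 0.702 over all nuclei and 0.285 in the other labels, the last without a filter. With the replicate number as a replicate block 0 members were called. In saline and Malat1 ASO the replicate number is also the deposited batch, and same-numbered animals' deviations correlated at 0.0077 to 0.28. In the other pairs of groups, where number and batch coincide only in part or not at all, the range was -0.13 to 0.13. Animals of the same batch correlated at a median of 0.085, against -0.025 for others, and with the batch as a block 0 members were called. Over all genes in astrocytes, leaving out the filter on low counts raised the genes called from 0, 0, 1 and 1 to 7 (Malat1 ASO), 2 (anti-TfR:Malat1), 12 (OTV:Malat1) and 8 (OTV:Malat1 against anti-TfR:Malat1), and without Malat1 none were called. With 1 animal left out the calls ran from 0 to 1, 1 to 2 and 0 to 1 in the last 3. Of 972 recomputed changes of members in astrocytes, 15 moved by more than the reported SE and 43 changed sign, all uncalled. Differences in the astrocyte share, with 1 animal left out, ran from -0.18 to 0.54 percentage points (Malat1 ASO against saline), -0.28 to 0.49 (anti-TfR:Malat1), -0.18 to 0.54 (OTV:Malat1) and -0.12 to 0.36 (OTV:Malat1 against anti-TfR:Malat1), with a lowest exact p of 0.10. The mean of the share differences within batches, added after the data were seen, was 0.08, 0.16, 0.54 and 0.39 in the same order (exact p = 0.875, 0.528, 0.25 and 0.333). Leaving out Malat1 moved the Gpc5 level to 9414 CPM. Thinning to 1000 UMIs in place of 500 gave shares of 93.8% for Gpc5, 93.7% for Slc1a2, 82.7% for Slc4a4, 74.4% for Slc1a3, 33.6% for Glul, 24.9% for Gja1, 13.9% for Aqp4, 12.3% for Kcnj10 and 10.7% for Aldh1l1, since depth sets these shares. Aqp4, Kcnj10 and Aldh1l1 had the lowest shares at both depths.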

Other observations

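In astrocyte-labelled nuclei the ependymal genes Foxj1, Ccdc153, Tmem212 and Dnah11 summed to 4.56 CPM (0 to 8.50) over the 17 animals, and the Bergmann glia genes Gdf10 and Hopx to 23.9 CPM (7.40 to 38.5).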
